A study of Mus musculus with 13 samples.

Results

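The proteasome is the barrel-shaped protease that destroys proteins tagged with ubiquitin, and the genes described here encode its subunits, its activators, an inhibitor and the chaperones that assemble it. They were chosen by name, as the protein-coding genes whose symbol is Psma, Psmb, Psmc, Psmd, Psme, Psmf or Psmg followed by a number and whose mean normalized count was 10 or more. The rule matched 48 genes of the annotation and took in 45 of the 16382 genes of the deposited tables. Psma8, Psmb9 and Psmb11 were not analysed here. The 45 genes comprised 14 constitutive subunits of the core particle, 2 immune catalytic subunits, 17 subunits of the regulatory particle, 4 activator genes, 1 inhibitor and 7 assembly chaperones. All 45 passed the filter on low counts, and the lowest estimated count of any of them in any library was 118, for Psmb8.

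RNA-seq was performed on myotubes of C2C12, a wild-type (WT) mouse myoblast line that fuses into multinucleated fibres in low serum. From day 8 of differentiation the myotubes were held for 24 h in differentiation medium with either DMSO, the vehicle (CON, 6 libraries), or 10 µM palmitoylethanolamide, a fatty acid amide made by many tissues (PEA, 6 libraries). Both groups were of 1 cell line. The experiment was run 3 times with duplicate wells of each treatment, and since the labels do not tie the libraries to these runs, the p-values may measure a spread that is partly technical.

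In the core particle, stacked rings of α subunits gate the entry to inner rings of β subunits, of which Psmb5, Psmb6 and Psmb7 encode the catalytic ones. The regulatory particle caps the core, binds ubiquitin chains, removes them and unfolds the substrate with a ring of ATPases. Interferons induce a further set of catalytic subunits, encoded by Psmb8, Psmb9 and Psmb10, which replace the constitutive ones in newly built cores, together with the activator PA28αβ, and the peptides made by this immunoproteasome feed MHC class I. In muscle, much of the breakdown of contractile proteins passes through the ubiquitin and proteasome system.

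Libraries held between 12354845 and 50397444 estimated counts, and CON replicate 1 held 2.25 times the total of the second deepest library. Values below are normalized counts, the deposited estimated counts divided by 1 factor per library, and are given as the lowest, the median and the highest of 6 libraries or as mean ± SD. Fold changes are log2 values of PEA against CON with their standard error (SE) from edgeR's quasi-likelihood test, and adjusted p-values are Benjamini-Hochberg values over the 13142 genes tested, with a threshold of 0.05. The myotube markers Myog, Ckm, Acta1, Mylpf, Myh1, Myh3, Tnnt3 and Des were all present, with a summed normalized count of 128902 to 195987 in CON and 135970 to 152789 in PEA, and all 8 had lower values in PEA, of which Tnnt3 passed the test and Myh1 turned to higher values by limma-voom. CON replicate 3 was the lowest CON library for all 8 of these markers, and it was the highest CON library for 22 of the 31 constitutive core and regulatory particle genes described below. Markers of myoblasts and reserve cells (Pax7, Myf5, Myod1 and Cdh15) summed to 6706 to 9189 in CON and 6280 to 7583 in PEA, and 1 of 4 was called. It was Cdh15, a cadherin of myoblasts, which fell by 0.25 on the log2 scale (SE 0.08, adjusted p = 0.0444 by edgeR). Cdh15 made up most of the sum, with 5733 ± 678.6 in CON and 4814 ± 408.7 in PEA (SD, n = 6). Of the others, Myod1 gave -0.10 (SE 0.08), Pax7 -0.02 (SE 0.16) and Myf5, on the higher side, 0.09 (SE 0.10). The part of these markers in the values of the proteasome genes was not tested. Differences in the RNA of bulk cultures cannot be told apart from differences in how many cells of a type they held.

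Proteasome genes divided by class in the direction of their values. All 14 constitutive core genes and all 17 regulatory particle genes had lower values in PEA, while both immune catalytic subunits and both PA28αβ genes had higher values. Psmd11 and Psma1, which differed least from CON, turned in sign when some single libraries were left out, Psma1 without CON replicate 3. The differences of the first set were small, with a median log2 fold change of -0.14 in the constitutive core and -0.11 in the regulatory particle, against 0.01 over all genes tested. For the immune catalytic pair the median was 0.56, but neither member passed the test. Over all 45 genes, 38 had lower values in PEA (median log2 fold change -0.11), compared with 48.7% of all genes tested.

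Of the 45 genes, 5 fell in PEA at an adjusted p below 0.05 by edgeR, namely Psmb4, Psmb7, Psmd6, Psmd14 and Psme4. That share, 11.1%, stood beside 11.0% called over all genes tested, and beside 4.74% called lower. No member was called higher by edgeR or by DESeq2, which called 6.31% and 7.48% of all genes higher. Psmb8 and Psmb10 were above CON at an unadjusted p below 0.05 by edgeR, and limma-voom called Psmb8 higher, beside 7.39% of all genes. At an unadjusted p below 0.05 there were 27 members, 25 of them lower, beside 27.4% of all genes tested, 13.1% lower. The number called depended on single libraries. It was 0 without PEA replicate 2 and 0 without PEA replicate 5, where edgeR left 17 and 19 members at an unadjusted p below 0.05. It was 1 without CON replicate 6, 2 without PEA replicate 4, 2 without PEA replicate 6, 3 without CON replicate 3, 11 without CON replicate 2 and 14 without CON replicate 4. Over all genes tested, between 5.89% and 16.7% were called when single libraries were left out. DESeq2, the tool of the study, called 15 members, all lower and including the 5 above, beside 7.03% of all genes called lower.

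**Figure D1:**
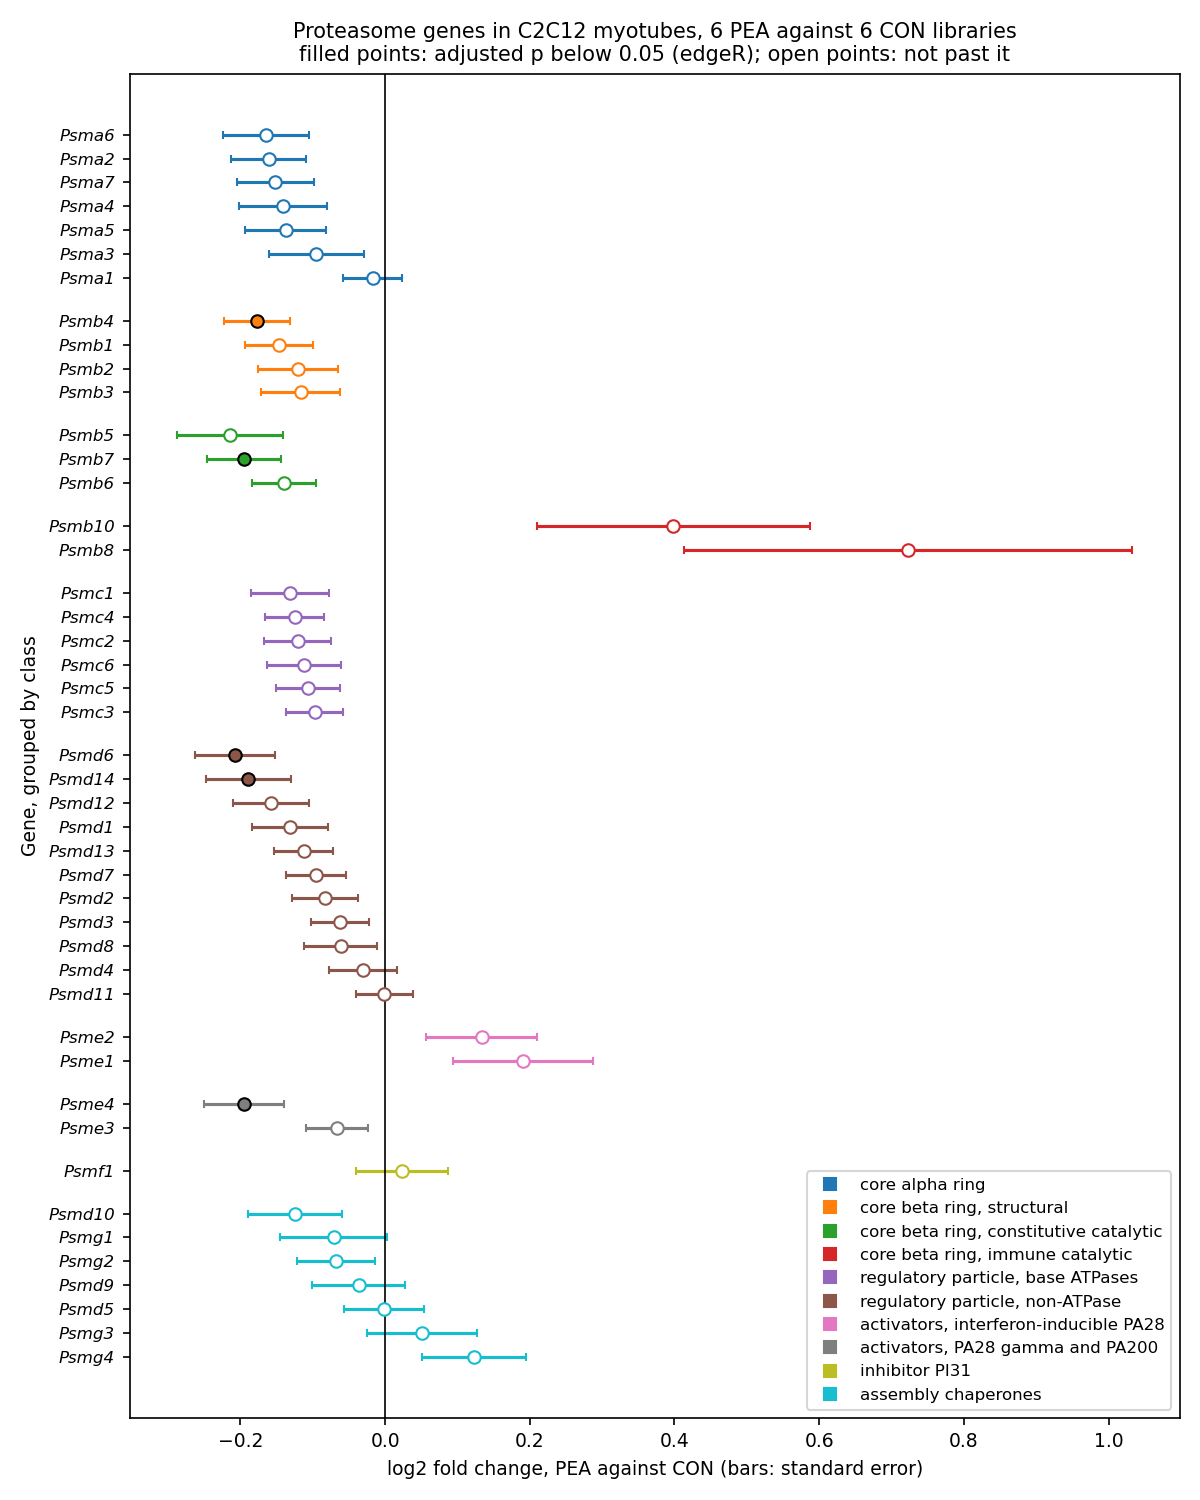
Log2 fold change of each of the 45 proteasome genes, PEA against CON (x axis, bars are the standard error), with genes on the y axis grouped by class and filled points for genes with an adjusted p below 0.05 by edgeR. The 31 constitutive core and regulatory particle genes lie between -0.21 and 0, the chaperones lie around 0, and Psmb8 (0.72) and Psmb10 (0.40) lie far to the right with the widest errors.

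The α ring, encoded by Psma1 to Psma7, closes the ends of the core barrel. None of its 7 genes passed the test by edgeR, 5 were lower at an unadjusted p below 0.05 by edgeR, DESeq2 called 3 of them, and limma-voom called 1, Psma2. The median log2 fold change was -0.14, and values ran from -0.16 to -0.02. Psma2 (ENSMUSG00000015671, GRCm39 chromosome 13, 14787804 to 14848821) had the smallest p of the ring. Its normalized counts were 3001 to 3707 in CON (median 3239) and 2689 to 3112 in PEA (median 2918). The groups overlapped, although all 6 PEA libraries lay below the CON median, and the log2 fold change was -0.16 (SE 0.05, adjusted p = 0.0551 by edgeR). Psma2 passed the threshold without CON replicate 4 (adjusted p = 0.0327) and without PEA replicate 3 (adjusted p = 0.0487). Psma1 differed least from CON, by -0.02 (SE 0.04).

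The structural β subunits Psmb1, Psmb2, Psmb3 and Psmb4 hold the inner rings together and carry no active site. All 4 were lower in PEA at an unadjusted p below 0.05, with log2 fold changes from -0.18 to -0.12, and edgeR called 1, while DESeq2 and limma-voom also called Psmb1. Psmb4 (ENSMUSG00000005779, chromosome 3, 94781005 to 94794272) measured 5291 to 5959 in CON (median 5700) and 4691 to 5219 in PEA (median 5060). No PEA library reached the lowest CON library. It fell by 0.18 on the log2 scale (SE 0.05, adjusted p = 0.0223 by edgeR), from 5643 ± 293.8 to 4983 ± 236.2 (SD, n = 6). The call was lost without CON replicate 6, PEA replicate 2 or PEA replicate 5, with adjusted p between 0.0534 and 0.0609 by edgeR. Of the bases in its exons, 16.3% overlap Gm65701 on the opposite strand, and whether the counting used strand is not given in the sources used here.

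The 3 constitutive catalytic subunits had the lowest median of any class, -0.20, and all 3 were lower at an unadjusted p below 0.05. EdgeR called 1 of them, Psmb7, limma-voom called Psmb6 as well, and DESeq2 called all 3. Psmb5 encodes the subunit with chymotrypsin-like activity, Psmb6 the one with caspase-like activity and Psmb7 the one with trypsin-like activity. Promoters of Psmb5 and Psmb6 are shown because both hold, close to the start of transcription, the letters TGACNNNGC of the antioxidant response element, to which NRF1 and NRF2, factors that drive proteasome genes, bind. The stretches end at the base before the first annotated exon of the gene, are read 5′ to 3′ on the gene's strand, and come from RefSeq promoter windows placed in GRCm39 by exact match, with the matching letters in capitals.
Psmb5, chr14:54855482-54855702, minus strand: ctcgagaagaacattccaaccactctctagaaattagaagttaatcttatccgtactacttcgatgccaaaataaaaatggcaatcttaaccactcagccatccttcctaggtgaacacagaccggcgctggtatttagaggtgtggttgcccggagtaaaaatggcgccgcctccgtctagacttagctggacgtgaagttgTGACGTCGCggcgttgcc
Psmb6, chr11:70415933-70416182, plus strand: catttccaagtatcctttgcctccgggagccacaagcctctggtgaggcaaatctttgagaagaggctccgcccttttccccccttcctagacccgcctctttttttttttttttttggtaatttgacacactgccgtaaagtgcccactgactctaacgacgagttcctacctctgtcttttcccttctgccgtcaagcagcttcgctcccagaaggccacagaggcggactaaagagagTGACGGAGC
Searched on both strands of the 250 bases upstream of each RefSeq start, these letters were present in 5 of 41 windows of the 38 members that had one (12.2%) and in 10.2% of all 32851 windows. The other members with a match were Psmc6, Psmd12 and Psmd9.

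Psmb7 (ENSMUSG00000026750, chromosome 2, 38478044 to 38534099) ranged from 4219 to 4822 normalized counts in CON (median 4367) and from 3494 to 4134 in PEA (median 3962). The groups did not overlap, with all of PEA lower. It fell by 0.20 on the log2 scale (SE 0.05, adjusted p = 0.0234 by edgeR). The call was lost without CON replicate 6, PEA replicate 2 or PEA replicate 5 (adjusted p between 0.0538 and 0.0615), and 34.9% of its exon bases overlap Nek6 on the opposite strand.

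Psmb5 (ENSMUSG00000022193, chromosome 14, 54850776 to 54855481), the target of the drug bortezomib, gave 753.9 to 917.0 in CON (median 810.6) and 572.7 to 789.7 in PEA (median 720.3). PEA replicate 5 was the lowest of all 12 libraries, and the groups overlapped above it. Its log2 fold change, -0.21, was the lowest of all 45 genes but came with a wider error (SE 0.07, adjusted p = 0.0678 by edgeR).

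For Psmb6 (ENSMUSG00000018286, chromosome 11, 70416183 to 70418684) the CON libraries spanned 4193 to 4803 (median 4432) and the PEA libraries 3843 to 4209 (median 4128). PEA replicate 1 alone lay above CON replicate 1, the lowest CON library, and the groups were otherwise apart. The log2 fold change was -0.14 (SE 0.04, adjusted p = 0.0508 by edgeR), just above the threshold, so Psmb6 was not called. It came under the threshold by DESeq2 (adjusted p = 0.0182), by limma-voom (adjusted p = 0.0430) and, by edgeR, with median-of-ratios factors, with the trends of exon length and GC content removed or without CON replicate 1 (adjusted p between 0.0390 and 0.0488). Psmb5, Psmb6 and Psmb7 each have an annotated pseudogene, with which reads could be shared.

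**Figure D2:**
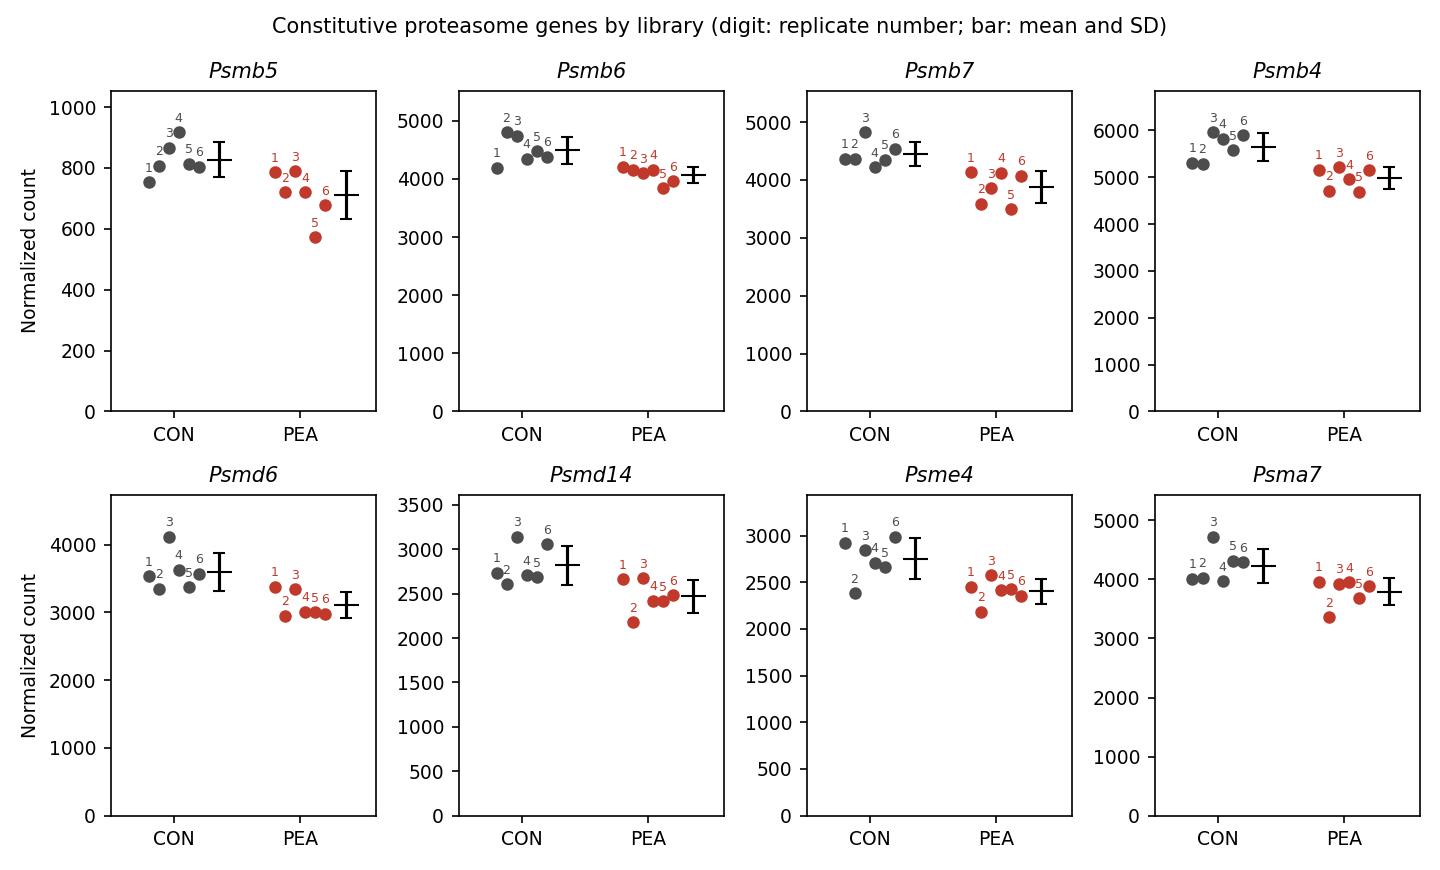
Normalized count (y axis, from 0) of 8 constitutive proteasome genes in each of the 6 CON and 6 PEA libraries, with the replicate number above each point and the mean and SD beside each group. The PEA libraries of Psmb4, Psmb7 and Psma7 all lie below the CON libraries, while the groups of the other genes overlap.

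The groups were completely separate for 4 of the 45 genes, Psma7, Psmb1, Psmb4 and Psmb7, each with PEA lower, and for 4.34% of all genes tested (1.81% with PEA lower). Psma7 and Psmb1 are named here after their values were seen. Psma7, an α ring gene, ranged from 3968 to 4725 in CON and from 3365 to 3959 in PEA, with a log2 fold change of -0.15 (SE 0.05, adjusted p = 0.0725 by edgeR). Psmb1 ranged from 4974 to 5789 in CON and from 4415 to 4901 in PEA, with a log2 fold change of -0.15 (SE 0.05, adjusted p = 0.0536 by edgeR). Although separated, neither was called by edgeR. DESeq2 called both, and limma-voom called Psmb1.

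The immune catalytic subunits ran the other way. Both Psmb8 and Psmb10 had higher values in PEA and lay above the CON median in 6 of 6 PEA libraries, but the CON libraries were spread so widely that neither passed the test. The coefficient of variation in CON was 62.4% for Psmb8 and 37.6% for Psmb10, against a median of 5.95% for the 31 constitutive core and regulatory particle genes. In PEA it was 10.6% and 15.8%, against 4.51%.

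Psmb8 (ENSMUSG00000024338, chromosome 17, 34416690 to 34420428), which encodes the replacement of the Psmb5 subunit, gave normalized counts of 120.0 to 722.3 in CON (median 370.6) and 529.2 to 680.8 in PEA (median 642.7). CON replicates 3 and 6 were lowest, at 129.6 and 120.0, and CON replicate 2, at 722.3, was above every PEA library. The mean was 377.3 ± 235.5 in CON and 617.6 ± 65.7 in PEA (SD, n = 6). Its log2 fold change was 0.72 (SE 0.31, 95% interval 0.03 to 1.41, adjusted p = 0.139 by edgeR). Without CON replicate 2 it passed the test, with an adjusted p of 0.0195 by edgeR.

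Psmb10 (ENSMUSG00000031897, chromosome 8, 106662362 to 106665077), which takes the place of the Psmb7 subunit, gave 447.4 to 1264 in CON (median 767.5) and 842.9 to 1244 in PEA (median 1008). The order of the CON libraries was like that of Psmb8, with replicates 3 and 6 lowest and replicate 2 highest, above all PEA libraries. Its log2 fold change was 0.40 (SE 0.19, 95% interval -0.02 to 0.82, adjusted p = 0.181 by edgeR). The interval is wider than the test implies and took in 0, while the unadjusted p was 0.0494 by edgeR. Psmb10 too passed the test without CON replicate 2 (adjusted p = 0.0176 by edgeR). With CON replicates 3 and 6 both left out, the log2 fold change was 0.31 for Psmb8 (adjusted p = 0.254 by edgeR) and 0.17 for Psmb10 (adjusted p = 0.565 by edgeR). For Psmb8, 10.9% of the exon bases overlap Gm20496 on the opposite strand.

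Upstream sequences of the immune pair are shown because both genes are known interferon targets and only 1 of the pair held a searched interferon motif. The letters searched on both strands were TTCNNNGAA, the gamma-activated site, and GAAA followed by any 2 bases and GAAA, the interferon-stimulated response element. The Psmb8 stretch is a match to the former, in capitals, with 10 bases on each side. It lies upstream of the RefSeq start but inside the first exon of the GENCODE transcript, whose start is 479 bases before the RefSeq one. The Psmb10 stretch ends at the base before the first annotated exon and held neither motif.
Psmb8, chr17:34417062-34417090, plus strand: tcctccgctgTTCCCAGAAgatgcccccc
Psmb10, chr8:106665078-106665274, minus strand: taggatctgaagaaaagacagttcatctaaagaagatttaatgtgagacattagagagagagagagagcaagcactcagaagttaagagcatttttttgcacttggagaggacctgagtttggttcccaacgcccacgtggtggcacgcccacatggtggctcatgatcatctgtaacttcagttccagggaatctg
The gamma-activated letters were present in the windows of 2 members, Psmb8 and Psmg1 (4.88% of member windows), and in 7.02% of all windows. The letters of the response element were present in windows of 3 members, Psmb3, Psmd4 and Psmd9 (7.32%), and in 2.98% of all windows.

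Each immune subunit was then set against the constitutive subunit whose place it takes, as the ratio of their normalized counts within a library. Psmb9 was not analysed here, so its ratio to Psmb6 was not formed and 2 ratios were compared. The ratio of Psmb8 to Psmb5 ranged from 0.149 to 0.895 in CON (median 0.473) and from 0.670 to 1.16 in PEA (median 0.892). CON replicate 2 lay inside the PEA range, and the other 5 CON libraries were below every PEA library. The log2 ratio was 1.22 higher in PEA (SE 0.46), with p = 0.0108 when every assignment of the 12 libraries to 6 and 6 was enumerated (exact permutation test, two-sided; adjusted over 2 ratios, p = 0.0216).

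The ratio of Psmb10 to Psmb7 ranged from 0.0928 to 0.290 in CON (median 0.179) and from 0.219 to 0.303 in PEA (median 0.280). Again CON replicate 2 alone lay among the PEA libraries. The log2 ratio was 0.66 higher in PEA (SE 0.26, exact permutation p = 0.0238, adjusted p = 0.0238). The smallest p this test can give is 0.00216, with the libraries taken as independent, which duplicate wells of a run may not be. Without PEA replicate 2 or PEA replicate 4 both adjusted exact p-values were 0.0628, and without PEA replicate 6 both were 0.0584. With CON replicates 3 and 6 both left out, the log2 differences were 0.56 and 0.34, and both adjusted exact p-values were 0.0762.

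Per length of the GENCODE canonical transcript, Psmb8 made up 29.1% ± 13.7 of the sum of Psmb8 and Psmb5 in CON and 46.5% ± 5.30 in PEA (SD, n = 6). Psmb10 made up 13.5% ± 4.69 of the sum of Psmb10 and Psmb7 in CON and 19.1% ± 2.29 in PEA. On this scale the constitutive transcript had the larger mean share of both pairs in both groups. In single libraries the Psmb8 share ran from 13.0% to 47.2% in CON and from 40.1% to 53.8% in PEA.

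**Figure D3:**
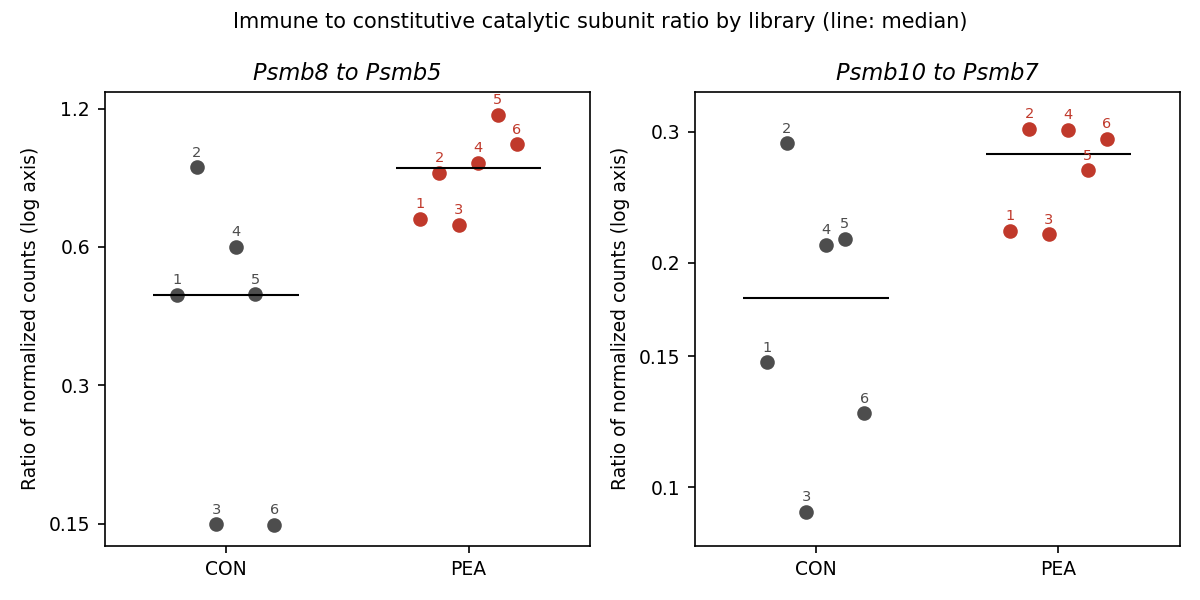
Ratio of normalized counts of Psmb8 to Psmb5 (left) and of Psmb10 to Psmb7 (right) in each library, on a log y axis, with the replicate number above each point and a line at the group median. In both panels 5 CON libraries lie below all PEA libraries and CON replicate 2 lies among them.

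The regulatory particle genes had a median log2 fold change of -0.11, where the constitutive core had -0.14. The base is built on the ATPases Psmc1 to Psmc6, which pull substrates into the core. All 6 ATPase genes were lower at an unadjusted p below 0.05, within a narrow range of log2 fold changes from -0.13 to -0.10, and edgeR called none of them, while DESeq2 called 2 and limma-voom 1. Psmc4 (ENSMUSG00000030603, chromosome 7, 27738180 to 27749526) measured 3748 to 4216 in CON (median 3999) and 3546 to 3791 in PEA (median 3656). Its groups overlapped at their edges, and the log2 fold change was -0.13 (SE 0.04, adjusted p = 0.0557 by edgeR). Psmc4 passed the threshold without CON replicate 2 (adjusted p = 0.0374) or CON replicate 4 (adjusted p = 0.0334).

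Among the 11 non-ATPase subunits, which bind, deubiquitinate and position the substrate, log2 fold changes ran from -0.21 to 0.00 (median -0.10), and 2 genes fell by edgeR. Limma-voom called the same 2, Psmd6 and Psmd14, and DESeq2 also called Psmd12 and Psmd13. Psmd6 (ENSMUSG00000021737, chromosome 14, 8348762 to 8357589), a scaffold subunit of the lid, measured 3352 to 4120 in CON (median 3555) and 2950 to 3381 in PEA (median 3008). CON replicate 3 stood above the rest, and only PEA replicate 1 reached into the CON range. It fell by 0.21 on the log2 scale (SE 0.06, adjusted p = 0.0252 by edgeR), and the call was lost without PEA replicate 2, 4, 5 or 6 (adjusted p between 0.0561 and 0.0639).

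Psmd14 (ENSMUSG00000026914, chromosome 2, 61542026 to 61631607) encodes the metalloprotease that cuts the ubiquitin chain from the substrate. It measured 2607 to 3142 in CON (median 2721) and 2176 to 2675 in PEA (median 2451). The groups overlapped, with PEA replicate 2 lowest. It fell by 0.19 on the log2 scale (SE 0.06, adjusted p = 0.0473 by edgeR), and the call held only without CON replicate 2, CON replicate 4, PEA replicate 1 or PEA replicate 3. Leaving out any of the other 8 libraries gave an adjusted p between 0.0586 and 0.110. The subunits Psmd11 and Psmd4, named here after their values were seen, lay nearest to CON, at 0.00 (SE 0.04) and -0.03 (SE 0.05).

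**Figure D4:**
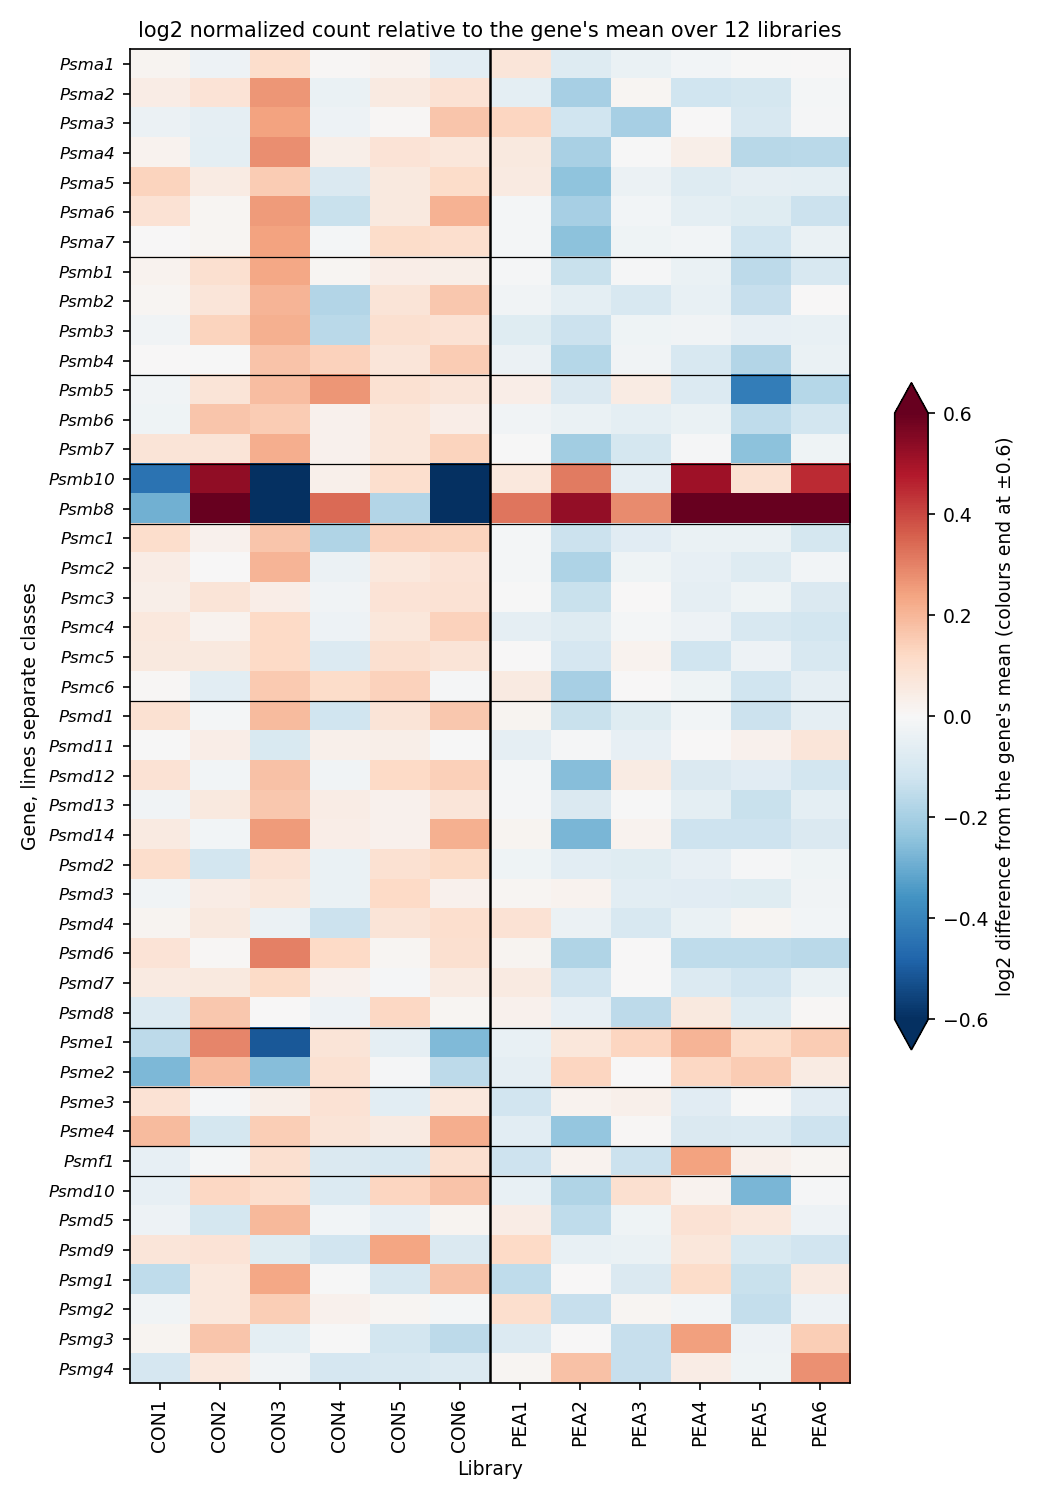
Log2 normalized count of each of the 45 genes (y axis, lines separate the classes) in each of the 12 libraries (x axis), as the difference from the mean of the gene over the libraries. The core and regulatory particle are higher in most CON libraries and many are highest in CON replicate 3, whereas Psmb8, Psmb10, Psme1 and Psme2 are lower in CON replicates 1, 3 and 6 than in CON replicate 2.

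The heat map of all genes by library shows the same libraries at the top or the bottom for many of the constitutive genes. Of the 31 core and regulatory particle genes, 22 were highest in CON replicate 3 among the CON libraries, and 17 were lowest in CON replicate 4. In PEA, 16 were highest in replicate 1 and 15 were lowest in replicate 2. Leaving out CON replicates 3 and 6 together moved the median over the 45 genes from -0.11 to -0.079 on the log2 scale, and edgeR then called 0 members and left 11 at an unadjusted p below 0.05.

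The activators, which open the α ring in place of the regulatory particle, differed by type. Psme1 and Psme2 encode the α and β chains of PA28, which interferons induce. Psme1 (ENSMUSG00000022216, chromosome 14, 55815190 to 55822034) measured 1220 to 2127 in CON (median 1615) and 1687 to 1999 in PEA (median 1886). CON replicates 3 and 6 were lowest, and CON replicate 2 was above every PEA library. Its log2 fold change was 0.19 (SE 0.10, adjusted p = 0.216 by edgeR), and without CON replicate 2 it passed the test (adjusted p = 0.0246). Without CON replicates 3 and 6 together the value was 0.062 (adjusted p = 0.690 by edgeR). Of the bases in its exons, 51.9% overlap Emc9 on the opposite strand.

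Psme2 (ENSMUSG00000079197, chromosome 14, 55824895 to 55829173) measured 626.5 to 858.2 in CON (median 713.8) and 725.7 to 839.1 in PEA (median 801.1). Its groups overlapped, with CON replicates 1 and 3 lowest. The log2 fold change was 0.13 (SE 0.08, adjusted p = 0.280 by edgeR), and 10.6% of its exon bases overlap Rnf31.

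Psme3 (ENSMUSG00000078652, chromosome 11, 101206777 to 101215813), which encodes the nuclear PA28γ, measured 2803 to 3105 in CON (median 3031) and 2698 to 2984 in PEA (median 2855). The groups overlapped widely, and the log2 fold change was -0.07 (SE 0.04, adjusted p = 0.337 by edgeR). Psme4 (ENSMUSG00000040850, chromosome 11, 30721725 to 30830376), which encodes PA200, the activator tied to the breakdown of acetylated histones, measured 2383 to 2988 in CON (median 2777) and 2184 to 2575 in PEA (median 2419). CON replicate 2 was the lowest CON library and lay inside the PEA range. Psme4 fell by 0.20 on the log2 scale (SE 0.06, adjusted p = 0.0323 by edgeR). The call was lost without CON replicate 1, 3 or 6 and without PEA replicate 2, 4, 5 or 6, with adjusted p between 0.0528 and 0.0819.

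Psmf1 (ENSMUSG00000032869, chromosome 2, 151557732 to 151586119) encodes PI31, a protein that inhibits the core in the test tube. It measured 990.6 to 1132 in CON (median 1036) and 969.0 to 1253 in PEA (median 1070). The PEA range enclosed that of CON, and the log2 fold change was 0.02 (SE 0.06, adjusted p = 0.851 by edgeR).

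**Figure D5:**
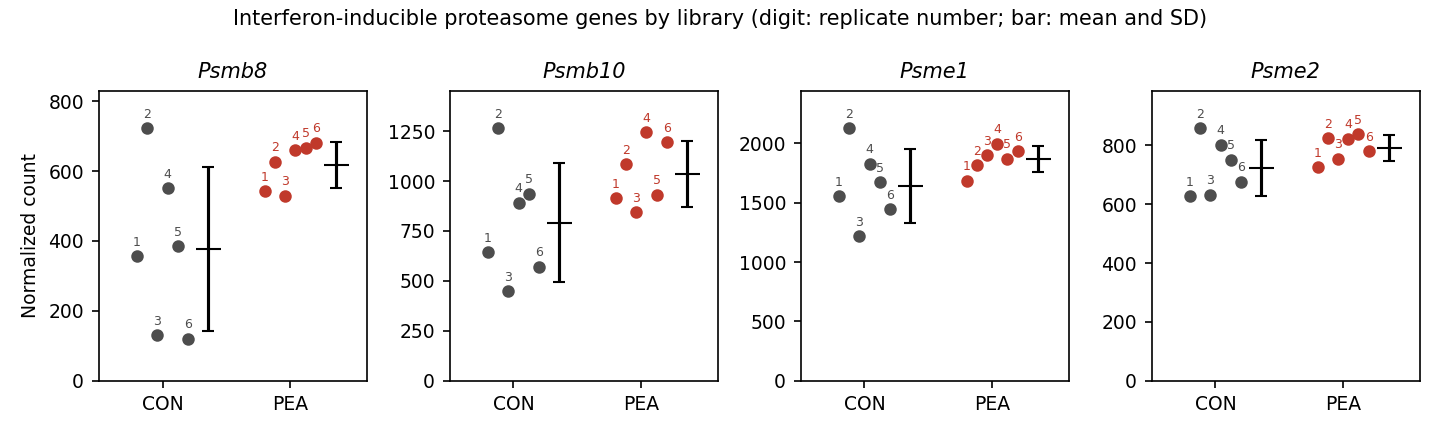
Normalized count (y axis, from 0) of the interferon-inducible genes Psmb8, Psmb10, Psme1 and Psme2 in each of the 6 CON and 6 PEA libraries, with the replicate number above each point and the mean and SD beside each group. For Psmb8, Psmb10 and Psme1 the CON libraries spread from below the PEA libraries (replicates 3 and 6) to above them (replicate 2), and for Psme2 CON replicates 1 and 3 are lowest. The PEA libraries lie closer together.

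The assembly chaperones, which bind subunits during construction and leave the finished particle, were Psmd5, Psmd9 and Psmd10 for the base and Psmg1 to Psmg4 for the core. Their median log2 fold change was -0.04, and it was -0.012 without CON replicate 5, -0.017 without PEA replicate 6, -0.023 without PEA replicate 5, -0.063 without CON replicate 4 and 0.0083 without CON replicates 3 and 6 together. Of the 7 genes, 5 had lower and 2 higher values in PEA, and none passed the test or had an unadjusted p below 0.05 by edgeR. DESeq2 and limma-voom called none either. Psmd10 (ENSMUSG00000031429, chromosome X, 139847687 to 139857477), also known as gankyrin, had the smallest p, with 1073 to 1277 in CON (median 1227) and 937.9 to 1214 in PEA (median 1114). The groups overlapped, and the log2 fold change was -0.12 (SE 0.07, adjusted p = 0.228 by edgeR).

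Genes outside the naming rule that work with the proteasome were counted from a list of 39, of which 36 were in the tables used. Of these, 4 were called higher and 4 lower by edgeR, or 22.2% in all, where 6.31% of all genes tested were called higher, 4.74% lower and 11.0% in all. Pomp, the chaperone that matures the core particle, ranged from 3052 to 3460 in CON and from 2741 to 3091 in PEA. It fell by 0.16 on the log2 scale (SE 0.05, adjusted p = 0.0353 by edgeR), the 1 gene called of 8 for other subunits and assembly factors. The call was lost without CON replicate 3, 5 or 6 and without PEA replicate 2, 5 or 6, with adjusted p between 0.0630 and 0.0863.

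No regulator of proteasome genes was called by edgeR among 4 (Nfe2l1, Nfe2l2, Ddi2 and Ngly1), 1 had an unadjusted p below 0.05, and both DESeq2 and limma-voom called that gene. It was Nfe2l1, which encodes NRF1, the factor that raises proteasome genes when proteasomes are short, and its values were on the higher side. It ranged from 9194 to 12791 in CON and from 11311 to 14917 in PEA, with overlap. The log2 fold change was 0.24 (SE 0.08, adjusted p = 0.0557 by edgeR), and it passed the threshold without CON replicate 2, PEA replicate 1 or PEA replicate 3 (adjusted p between 0.0125 and 0.0389). Nfe2l2, which encodes NRF2, gave 0.01 (SE 0.04), and Ddi2, the protease that activates NRF1, gave 0.00 (SE 0.05).

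Among the genes for the delivery of substrates and for ubiquitin itself, Ube3a, a ubiquitin ligase that binds the proteasome, fell by 0.23 (SE 0.07, adjusted p = 0.0444 by edgeR), a call kept without CON replicate 2, PEA replicate 1 or PEA replicate 3 and lost without any of the other 9 libraries (adjusted p between 0.0629 and 0.106). Rps27a, which encodes ubiquitin fused to a ribosomal protein, fell by 0.30 (SE 0.08, adjusted p = 0.0210 by edgeR), and without PEA replicate 5 its adjusted p was 0.0556. Without CON replicates 3 and 6 together the calls of Pomp, Ube3a and Rps27a were lost, with adjusted p between 0.0763 and 0.159 by edgeR.

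All 3 interferon regulators and all 5 peptide loading genes in the tables used had higher values in PEA. Among the interferon regulators, Irf1 ranged from 799.9 to 1320 in CON and from 1206 to 1640 in PEA. It rose by 0.41 on the log2 scale (SE 0.11, adjusted p = 0.0258 by edgeR), a call lost without PEA replicate 2, 4, 5 or 6 (adjusted p between 0.0558 and 0.0659). Nlrc5, which drives MHC class I genes, had 0.52 (SE 0.25, adjusted p = 0.186 by edgeR). Without CON replicate 2 Nlrc5 passed the test, at 0.81 with an adjusted p of 0.00909 by edgeR. It did not pass without any 1 of the other 11 libraries, with adjusted p up to 0.345 by edgeR. Without CON replicate 3 the log2 fold change was 0.40 (adjusted p = 0.313 by edgeR).

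Of the 5 peptide loading genes, whose products carry proteasome peptides into the endoplasmic reticulum and onto MHC class I, 3 rose. Tap1, a subunit of the peptide transporter, ranged from 264.3 to 786.5 in CON and from 600.8 to 978.4 in PEA. It rose by 0.64 on the log2 scale (SE 0.20, adjusted p = 0.0450 by edgeR), and its exons overlap those of Psmb9 on the opposite strand. That call was lost without CON replicate 1, 3, 5 or 6 and without PEA replicate 2, 4, 5 or 6 (adjusted p between 0.0544 and 0.103). Tapbp, which bridges the transporter and MHC class I, rose by 0.57 (SE 0.16, adjusted p = 0.0316 by edgeR), a call lost without CON replicate 1, 5 or 6 or PEA replicate 2, 4, 5 or 6 (adjusted p between 0.0525 and 0.0752). The third was B2m, the light chain of MHC class I, named here after its values were seen, which rose by 0.37 (SE 0.11, adjusted p = 0.0479 by edgeR) and kept that call without CON replicate 2 or CON replicate 4 but not without any of the other 10 libraries (adjusted p between 0.0539 and 0.104). DESeq2 called neither Tap1 (adjusted p = 0.0598) nor B2m (adjusted p = 0.0695). With CON replicates 3 and 6 both left out, the calls of Irf1, Tap1, Tapbp and B2m by edgeR were lost. The log2 fold changes were then 0.25 for Irf1, 0.39 for Tap1, 0.36 for Tapbp and 0.21 for B2m, with adjusted p between 0.0641 and 0.150.

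The same CON libraries were lowest and highest in most of these genes. In 10 of the 12 interferon-inducible genes looked at, namely Psmb8, Psmb10, Psme1, Psme2 and the interferon regulators and peptide loading genes, CON replicates 3 and 6 were the lowest CON libraries, with Psme2 and Nlrc5 as exceptions. CON replicate 2 was the highest in 11 of 12, Irf1 being the exception. This order was not particular to interferon-inducible genes. The myotube markers Mylpf, Myh1 and Des and the fibroblast marker Dcn also had CON replicates 3 and 6 lowest and CON replicate 2 highest. How many of all genes had it was not counted. Markers of macrophages and leukocytes were counted beside these 12 genes. Of 8 such genes 7 were in the tables used, and their summed normalized count was 613.2 to 835.7 in CON and 765.2 to 1036 in PEA. The markers Ptprc (0.319 in CON and 0.843 in PEA), Itgam (3.84 and 2.39) and Csf1r (8.09 and 6.67) were near 0 in both groups as group means. Most of the sum came from Cd14, with 554.4 ± 63.7 in CON and 657.3 ± 80.0 in PEA (SD, n = 6). Cd74, an MHC class II chaperone, gave 30.6 ± 22.8 and 80.1 ± 51.0. None of the 3 markers that could be tested was called by edgeR, DESeq2 or limma-voom, and 2 had an unadjusted p below 0.05 by edgeR. Fibroblast markers summed to 1996 to 4416 in CON and 3895 to 4941 in PEA, and 1 of 3 tested was called. It was Dcn, which rose by 0.48 on the log2 scale (SE 0.15, adjusted p = 0.0439 by edgeR) and made up most of the sum, with 2537 ± 737.5 in CON and 3544 ± 333.1 in PEA (SD, n = 6). Pdgfra, a growth factor receptor of fibroblasts, was not called, with 677.3 ± 120.9 in CON and 806.7 ± 82.2 in PEA, a log2 fold change of 0.25 (SE 0.10, adjusted p = 0.106 by edgeR) and 6 of 6 PEA libraries above the CON median. Lum was lower in value, with 31.3 ± 6.54 in CON and 18.3 ± 6.53 in PEA, and a log2 fold change of -0.77 (SE 0.28, adjusted p = 0.0851 by edgeR). The part of these markers in the values of the proteasome genes was not tested.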

How the data were processed

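Poly-A RNA of 12 libraries, 6 CON and 6 PEA, was sequenced with a kit not stated to keep strand. The authors trimmed reads in Partek Flow, aligned them with STAR to mm39 and quantified them to Ensembl release 100. They deposited estimated counts per gene, not normalized, of which 70.2% of the values above 0 were not whole, and a signal on a linear scale, the same counts divided by 1 DESeq2 factor per library (normalized counts). For PEA replicate 2 the labels list a top-up beside the first run (13 entries in all), with 1 set of values, which entered once.

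Estimated counts were rounded and tested with edgeR 4.0.16 (glmQLFTest, TMM, filterByExpr, treatment only; R 4.3.3) over 13142 of 16382 genes, at a Benjamini-Hochberg adjusted p below 0.05. TMM factors were 0.988 to 1.02 and the biological coefficient of variation was 0.106. Total counts per library set the counting error, and intervals cover no more than that and the spread over the libraries. The intervals used a t distribution with fewer degrees of freedom than edgeR's test, and so are wider than that test implies. Symbols and positions came from GENCODE M39 (GRCm39) for 16343 identifiers. Log2 ratios were tested by exact permutation, two-sided (scipy 1.17.1). Promoter windows are those of RefSeq, made for an earlier build. The fit was tested on simulated counts with known changes.

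The members and lists were chosen with earlier results of these data known. Named in full are the immune subunits and their counterparts, the activators, Psmf1, the called members of each other class (at most 3) or else the member with the smallest p, Nfe2l1, Pomp, Irf1, Nlrc5, Tap1 and up to 6 other called related genes with the smallest p. Some genes under this rule are not reported here. Alternatives were DESeq2 1.42.0, limma-voom (limma 3.58.1), median-of-ratios factors, no count filter, at least 10 counts in every library, limma on log2 of the deposited normalized counts plus 1, a block for the replicate number, removal of trends with exon length and GC content, and each library left out. For the ratios they were a pseudocount of 1, rounded estimated counts, the pairing by number and each library left out. The data had been seen when the omission of CON replicates 3 and 6 together was added.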

Additional observations from a re-analysis of the deposited data

Results flagged for a closer look

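In 94 sets of 6 libraries (45 genes and 2 ratios in each group), 5 had a library whose gap to its neighbour was large against the range of its group by Dixon's criterion, where chance gives about 1 in 20. All were CON libraries. CON replicate 3 was apart at the top for Psmb1 (5789 normalized counts), Psmd6 (4120) and Psmd5 (1957), and at the bottom for Psmd11 (2689). CON replicate 4 was apart at the bottom for Psmc5 (3662). Psmd6 is 1 of the 5 members called, and without CON replicate 3 its call was kept. No library was apart for Psmb8, Psmb10 or either ratio.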

How the results depend on the processing

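Under the alternatives, the number of members called was 15 with DESeq2, 10 with limma-voom (1 of them higher, Psmb8), 8 with median-of-ratios factors, 8 from the deposited normalized counts in limma and 11 with the trends of exon length and GC content removed, against 5. With no filter on low counts it was 4, and with at least 10 counts in every library 5. All of these but the fit with no filter, which left out Psmd14, included the 5. Over all genes tested the share called was 14.5% with DESeq2, 12.4% with limma-voom, 11.2% with median-of-ratios factors, 11.5% from the normalized counts, with the trends removed 6.41% higher and 5.61% lower, 8.08% with no filter and 11.8% with at least 10 counts in every library. Leaving out single libraries gave 0 to 14 members, and 0 to 3 called higher. Without CON replicates 3 and 6 together it was 0, beside 6.31% of all genes, and the median log2 fold change was -0.079 over all members, 0.24 for the immune pair (against 0.56) and 0.065 for PA28αβ (against 0.16), and that of the chaperones turned to 0.0083. The medians over single libraries left out were -0.17 to -0.12 for the constitutive core, -0.12 to -0.09 for the regulatory particle, -0.063 to -0.012 for the assembly chaperones and 0.41 to 0.80 for the immune pair. The log2 fold change of Psmf1 was between -0.027 (without PEA replicate 4, where the sign turned) and 0.050 over single libraries left out, and the signs of Psma1, Psmd5, Psmd9, Psmd11, Psmg1, Nfe2l2 and Ddi2 also turned under at least 1 alternative. The log2 differences of the ratios over single libraries left out were 0.96 to 1.47 for Psmb8 to Psmb5 and 0.48 to 0.81 for Psmb10 to Psmb7, with adjusted exact p between 0.00216 and 0.0628. Without CON replicates 3 and 6 together the log2 differences were 0.56 and 0.34. The causes were not tested.

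The replicate numbers did not pair the libraries. The correlation of same-numbered libraries in their deviations from the group means was -0.0829 to 0.0649, and no library was closest to its own number in both directions. With the replicate number as a block, 9 members were called, 7 lower and 2 higher (Psmb8 and Psmb10), beside 11.9% of all genes, 4.77% lower and 7.18% higher. In the paired comparison of the ratios, the log2 differences were 1.22 and 0.66 with an exact p of 0.0625 for both.

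Depth was not short for any member, since the lowest estimated count in any library was 118, but the CON libraries of Psmb8 and Psmb10 varied by 62.4% and 37.6% (coefficient of variation).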
